A study of Mus musculus with 4 samples.

Results

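Ide and Fgfbp3 are genes of mouse chromosome 19 that were chosen by their own UMI counts per cell type in these libraries: earlier results of the same data showed their transcripts higher in both libraries from mice on a high fat diet than in the library S. The 2 genes, with the identifiers ENSMUSG00000056999 (Ide) and ENSMUSG00000047632 (Fgfbp3), are members out of 54456 gene symbols in the count matrices. The question was whether their ratio to S is near-constant over cell types, as an inherited difference in copy number would give. Because the choice used these values, they are given as a description, with no test.

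Single-cell RNA sequencing with 10x Genomics chemistry was run on liver non-parenchymal cells, the liver cells other than hepatocytes, of C57BL/6J mice aged 30 weeks. The groups HFD_EXE, HFD_sed and S had 1 library each with a count matrix. HFD stands for high fat diet, EXE and sed are read here as with and without exercise, and S, whose title names no HFD, is the library both are set against. A further library, E, was not analysed here beyond its barcodes. The labels do not say whether a library came from 1 animal or from a pool, so the animal, the diet and the preparation cannot be told apart. Each interval printed below is a 95% interval that covers counting error only.

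Ide encodes the insulin-degrading enzyme, a zinc metalloprotease that cleaves insulin, amyloid-beta and other small peptides and that takes part in insulin clearance in the liver. Fgfbp3 encodes a secreted carrier protein that binds fibroblast growth factors and releases them from the matrix. A gain of copy number that includes both genes has been described as segregating among C57BL/6J mice. RNA was measured here and gene copies were not.

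The matrices held 11280 (HFD_EXE), 11752 (HFD_sed) and 11660 (S) barcodes, with 60901242, 63456399 and 84666844 UMIs in the same order (a unique molecular identifier, or UMI, tags 1 captured transcript). The labels give 5000 to 6000 captured cells per sample, fewer than these barcodes. Filters left 10173, 10738 and 10210 cells with median depths of 4917, 4178 and 6148.5 UMIs. Before filters, any pair of libraries, E included, shared 29 to 46 barcodes. The cells fell into 24 clusters. Named from marker genes, these gave 12 cell classes with at least 25 cells in each library, and an unnamed cluster led by Mmp13, Mmp12 and Cd207 was kept as a class of its own, so 13 classes were compared. Levels are given as CPM, the UMIs of a gene per 1000000 UMIs of a class. Over genes with at least 100 UMIs, the median class-stratified log2 ratio was 0.029 for HFD_sed over S and -0.0036 for HFD_EXE over S. Within single classes the median was taken over genes with at least 20 UMIs in the class. It lay furthest from 0 in plasma cells, at -0.33 for HFD_sed over S and -0.31 for HFD_EXE over S. In the other classes of these comparisons it lay between -0.14 and 0.11.

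The 250 bases before the annotated start of each gene are shown because the 2 genes stood higher together. They are from RefSeq on build GRCm38.p6, minus strand, at chr19:37334545-37334794 for Ide and chr19:36919600-36919849 for Fgfbp3, while the counts were made on GRCm39. Capitals mark motifs found on either strand.
Ide: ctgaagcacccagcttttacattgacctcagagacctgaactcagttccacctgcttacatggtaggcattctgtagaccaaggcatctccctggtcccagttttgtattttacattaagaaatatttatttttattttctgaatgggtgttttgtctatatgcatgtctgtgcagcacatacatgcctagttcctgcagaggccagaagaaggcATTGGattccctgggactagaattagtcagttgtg
Fgfbp3: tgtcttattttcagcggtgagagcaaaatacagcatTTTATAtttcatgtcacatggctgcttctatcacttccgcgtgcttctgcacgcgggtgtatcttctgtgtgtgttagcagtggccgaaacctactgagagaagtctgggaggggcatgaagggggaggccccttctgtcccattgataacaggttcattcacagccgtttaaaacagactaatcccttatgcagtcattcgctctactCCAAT
Both windows hold CCAAT (the capitals in Ide read its reverse complement), a motif found in 33.8% of 32851 promoters of this length. The window of Fgfbp3 also holds TATAAA on the reverse strand, 214 bases before the start, a motif found in 12.4% of them. The GC box GGGCGG, the E-box CACGTG, the AP-1 site TGACTCA, the cAMP response element TGACGTCA, the glucocorticoid response motif TGTTCT and the core of the interferon-stimulated response element were searched too and had no match in either window. The window of Ide has 42.8% G and C and that of Fgfbp3 47.2%, against a median of 52.4%. The most upstream protein-coding start of Ide in GENCODE M21 lies 3931 bases downstream of the RefSeq start, so the Ide window may not be the promoter most of its transcripts use. For Fgfbp3 the GENCODE start lies 16 bases upstream.

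Ide was detected in each of the 13 classes of each library. Over all kept cells it stood at 83.8 CPM (81.5 to 86.2) in HFD_EXE, 70.2 CPM (68.1 to 72.4) in HFD_sed, against 36.7 CPM (35.4 to 38.1) in S, from 4784, 4169 and 2823 UMIs. The intervals of the 3 libraries do not overlap, and S is the lowest. With class as a stratum, libraries were compared within classes, and classes with more UMIs of the gene weighed more. The clusters within a class still differed between libraries. On this measure HFD_sed was 2.17-fold (2.05 to 2.29) above S. HFD_EXE was 2.35-fold (2.24 to 2.47) above S. The S library enters both ratios. HFD_EXE stood at 1.04 times HFD_sed (0.996 to 1.09), so between the 2 high fat diet libraries the class-stratified interval held 1.

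**Figure D1:**
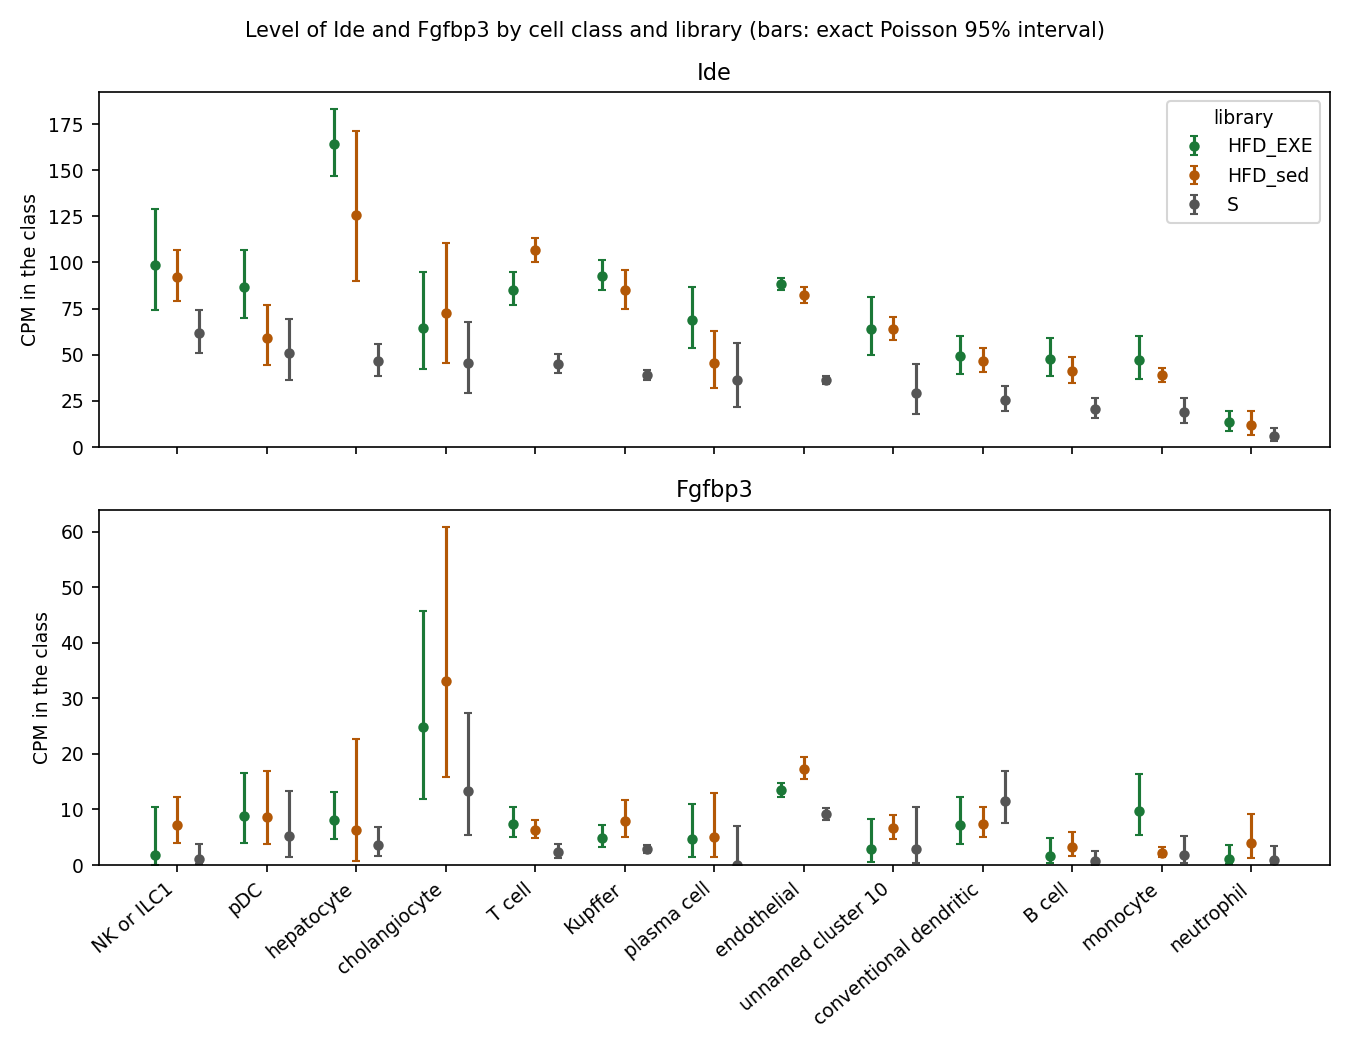
CPM of Ide (top) and Fgfbp3 (bottom) in each of 13 cell classes, with HFD_EXE, HFD_sed and S side by side; points are the class level of 1 library and bars its exact Poisson 95% interval. For Ide the S point is the lowest of the 3 in each class, and neutrophils are the lowest class of each library. For Fgfbp3 the S point is the highest in conventional dendritic cells.

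Among endothelial cells, the lining of the sinusoids and vessels and the largest class of HFD_EXE and S, Ide stood at 88.3 CPM (85.2 to 91.6) in HFD_EXE, 82.4 CPM (78.0 to 86.9) in HFD_sed, against 36.2 CPM (34.1 to 38.4) in S. In Kupffer cells, the resident macrophages of the liver, it stood at 92.9 CPM (84.9 to 101), 85.1 CPM (75.1 to 96.2) and 38.9 CPM (36.4 to 41.6) in HFD_EXE, HFD_sed and S. In both classes the interval of S lay wholly below those of the high fat diet libraries. T cells held 85.3 CPM (76.7 to 94.6) in HFD_EXE, 107 CPM (100.4 to 113) in HFD_sed, against 45.2 CPM (40.2 to 50.5) in S. Here the order of the high fat diet libraries was turned, with HFD_EXE at 0.800 times HFD_sed (0.708 to 0.902).

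The hepatocyte-like cells carried along in the preparation had the highest Ide level of both high fat diet libraries, 164 CPM (147 to 183) in HFD_EXE and 126 CPM (89.8 to 171) in HFD_sed, against 46.6 CPM (38.5 to 55.9) in S. In HFD_EXE that interval lay above the next class, and in HFD_sed it overlapped that of T cells. Cells named from markers that natural killer (NK) cells share with group 1 innate lymphoid cells held 98.8 CPM (74.0 to 129) in HFD_EXE, 92.3 CPM (79.3 to 107) in HFD_sed, against 61.8 CPM (51.1 to 74.1) in S, where they were the highest class. Neutrophils were the lowest class of each library. They held 13.5 CPM (8.89 to 19.6) in HFD_EXE, 11.7 CPM (6.56 to 19.3) in HFD_sed, against 6.03 CPM (3.21 to 10.3) in S, and monocytes, the next lowest, had intervals above these in each library. Between these ends, no interval of a class was clear of that of the next class in the order, in any of the 3 libraries.

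The other classes lay in the same direction. B cells held 48.0 CPM in HFD_EXE, 41.5 CPM in HFD_sed and 20.7 CPM in S, and monocytes 47.4, 39.0 and 18.8 CPM in the same libraries. Conventional dendritic cells held 49.1 CPM in HFD_EXE, 46.8 CPM in HFD_sed and 25.8 CPM in S, and the unnamed cluster led by Mmp13 64.1, 64.0 and 29.1 CPM. The smallest classes had wider intervals. Plasmacytoid dendritic cells held 86.8 CPM (69.7 to 107) in HFD_EXE, 59.0 CPM (44.4 to 76.8) in HFD_sed, against 50.9 CPM (36.2 to 69.5) in S. Plasma cells held 68.8 CPM in HFD_EXE, 45.6 CPM in HFD_sed and 36.2 CPM in S, and cholangiocytes, the cells of the bile ducts, 64.8, 72.9 and 45.5 CPM. The intervals of HFD_sed and S overlapped in these 3 classes.

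For HFD_sed over S, the Ide ratio was above 1 in 13 of 13 classes and at least 1.5 in 10 of them, where between 8.48% and 24.6% of the measured genes of a class (median 11.5%, B cells 9.23%) reached that fold in that direction. In the class-stratified ratio 7.56% of genes did. The lowest ratios were 1.16 (0.755 to 1.80) in plasmacytoid dendritic cells and 1.26 (0.704 to 2.33) in plasma cells, and the highest was 2.70 (1.83 to 3.90) in hepatocyte-like cells, with a median over classes of 2.01. The interval lay wholly above 1 in 9 classes. In 11 of 13 classes it held the stratified ratio, the exceptions being plasmacytoid dendritic cells and NK cells (1.49, 1.18 to 1.90), both lower. The stratified ratio comes from these same classes, and the intervals of cholangiocytes, neutrophils and plasma cells held 1 as well. Such counts therefore say little on how even the ratio is.

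For HFD_EXE over S, the Ide ratio was above 1 in 13 of 13 classes and at least 1.5 in 12 of them, against 7% to 18.7% of the measured genes of a class (median 11.4%, cholangiocytes 9.55%, monocytes 9.7%) and 6.55% of genes for the class-stratified ratio. It ran between 1.42 (0.785 to 2.59) in cholangiocytes and 3.53 (2.85 to 4.40) in hepatocyte-like cells, with a median of 2.20, and the interval lay above 1 in 12 classes. The stratified ratio was held by the interval in 10 of 13 classes. Of the exceptions, hepatocyte-like cells stood higher, and T cells (1.89, 1.62 to 2.21) and NK cells (1.60, 1.13 to 2.23) lower. Within single hepatocyte-like clusters the ratio was 2.77 and 2.76, below that of the class. For HFD_EXE over HFD_sed the ratio was at least 1.5 in 1 of 13 classes, plasma cells (1.51, 0.999 to 2.32), against 6.96% to 27.2% of genes (median 14.0%) and 7.54% of genes for the class-stratified ratio (7.91% were as far below 1). In 12 of 13 classes the interval held the stratified 1.04, with T cells as the exception.

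**Figure D2:**
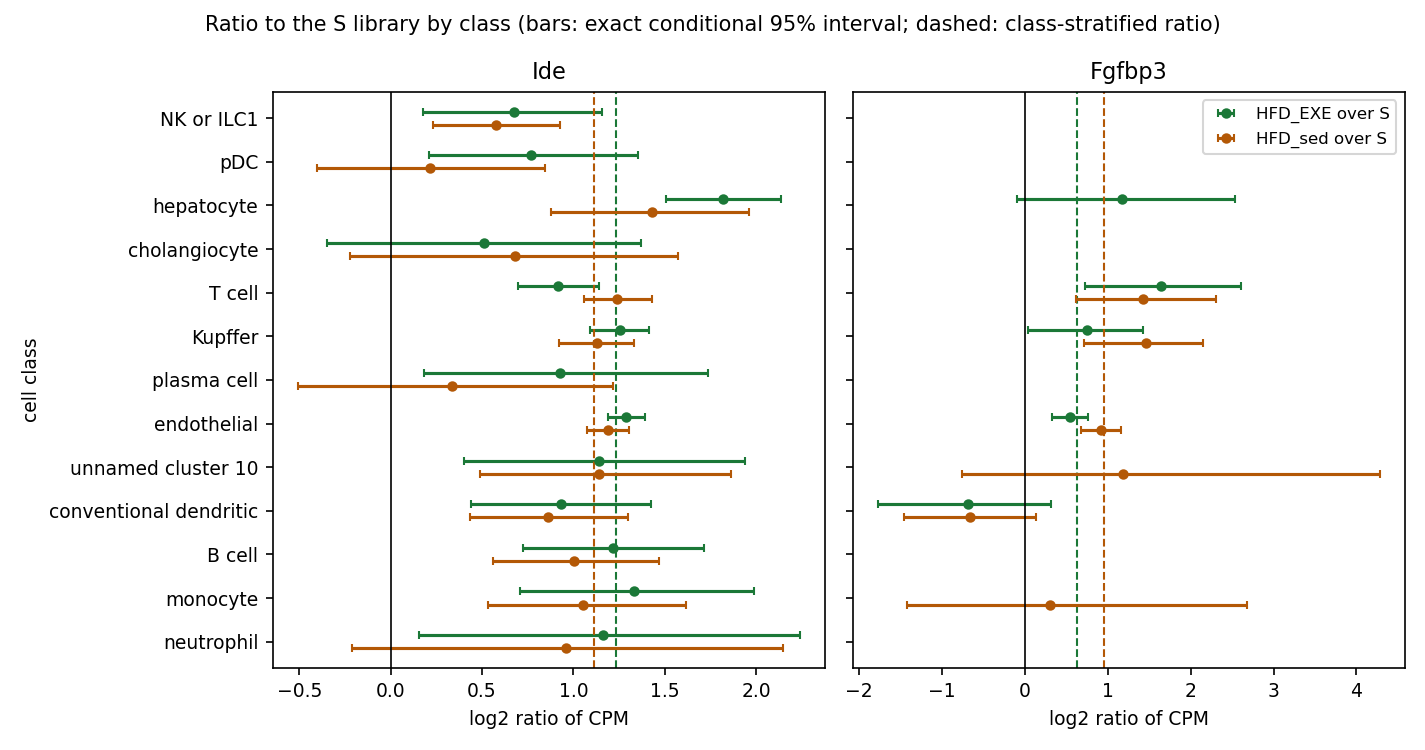
Log2 ratio of CPM to the S library for Ide (left) and Fgfbp3 (right), by class, for HFD_EXE over S and HFD_sed over S; bars are exact conditional 95% intervals, dashed lines the class-stratified ratios, and classes under 20 UMIs in both libraries together are not drawn. The Ide points lie to the right of 0 in 13 of 13 classes in both comparisons, and the Fgfbp3 points of conventional dendritic cells lie to the left.

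The Ide ratio to S was above 1 in 13 of 13 classes in both comparisons, but its size varied between classes more than independent counting of UMIs gives. Single cells could hold many Ide UMIs, up to 16 in a T cell of HFD_sed, and clusters within classes differed between libraries. The cause of the spread was not tested. The log2 ratios of HFD_sed over S had a range of 1.22 and an SD of 0.36 over 13 classes, and those of HFD_EXE over S a range of 1.31 and an SD of 0.34. The Pearson chi-square against 1 common ratio, divided by its degrees of freedom, was 2.55 and 3.12 in these comparisons, where counting error alone gives about 1. Of the genes measured in the same classes, 31.5% had an index no higher than Ide for HFD_sed over S and 52.9% for HFD_EXE over S. The index of Ide thus lay within the range of other genes. Where ratios differ between classes the index rises with the number of UMIs, and these genes were not matched for it.

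The range of Ide over classes was not an unusual one: 35.7% of genes measured in all 13 classes had a range no wider for HFD_sed over S and 54.7% for HFD_EXE over S. Of 3606 genes measured in all 13 classes for HFD_sed over S, 102 (2.83%) had a stratified ratio of at least 1.5, and 11 of the 102, Ide included, had a range over classes no wider than that of Ide. Of 4116 such genes for HFD_EXE over S, 92 (2.24%) had a stratified ratio of at least 1.5, and 13 of the 92, Ide included, had a range no wider. A ratio above 1 in all 13 classes was seen for 47 genes (1.30%) for HFD_sed over S and for 53 genes (1.29%) for HFD_EXE over S, Ide included. The members were chosen for this pattern, and nothing is read from their place among these genes.

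**Figure D3:**
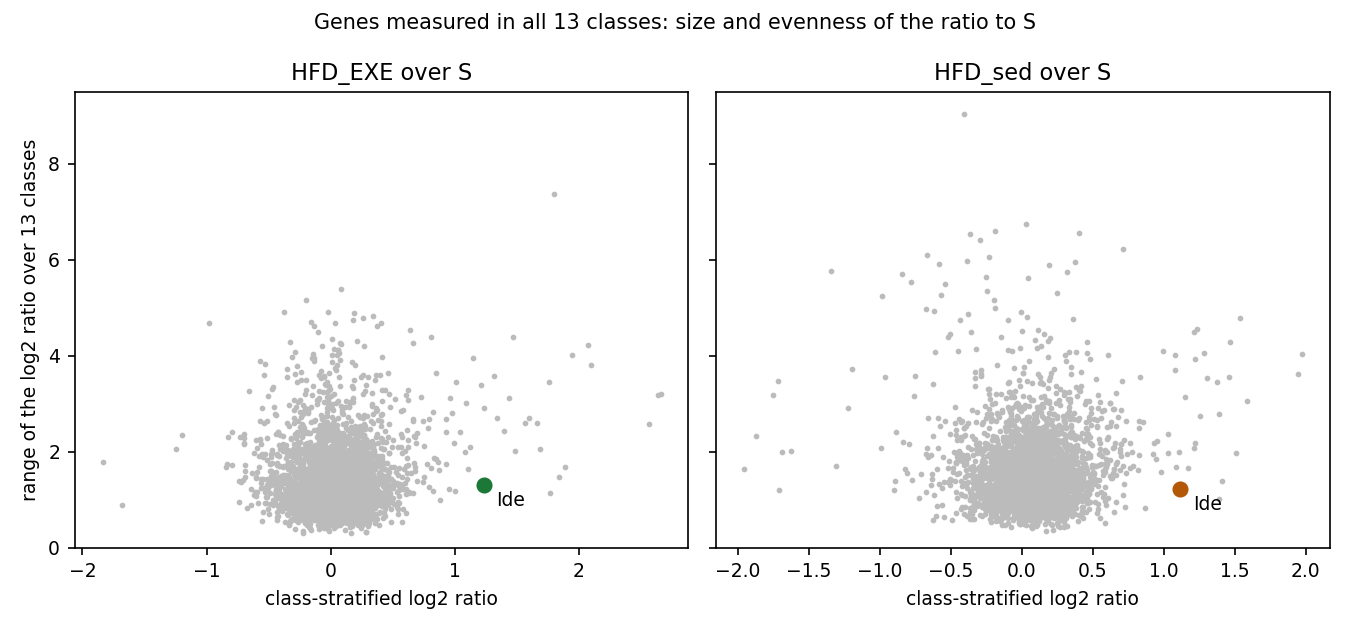
Each grey point is a gene measured in all 13 classes with UMIs in both libraries of each, placed by its class-stratified log2 ratio (horizontal) and the range of its log2 ratio over the 13 classes (vertical), for HFD_EXE over S (left) and HFD_sed over S (right). Ide lies at 1.23 and 1.31 in the left panel and at 1.11 and 1.22 in the right panel, to the right of most genes.

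Among genes measured in at least 5 classes with a range no wider than that of Ide, 6 of 2505 (0.240%) lay as far from 1 in either direction for HFD_sed over S. The 5 farthest were Mettl7b at 0.302, Mir6236 at 0.306, Gm9917 at 0.325, the mitochondrially encoded ATP synthase subunit gene mt-Atp6 at 2.61 and Gm28373 at 2.54 times S. For HFD_EXE over S it was 8 of 4193 (0.191%), the farthest being Gm37144 at 7.65, the major urinary protein genes Mup7 at 3.90 and Mup21 at 3.33, the fatty acid binding protein gene Fabp1 at 3.40 and Mir6236 at 0.312. The Mup genes and Fabp1 are transcribed in hepatocytes, and the Mup genes are near-identical copies whose reads the counting can split. The range of Ide was over 13 classes, and a range over fewer classes tends to be narrower. Mettl7b, Gm9917 and Mup7 were measured in 6 classes, and Gm28373, Gm37144 and Mup21 in 5, so these counts do not compare like with like. For HFD_EXE over HFD_sed 71.6% of 1496 genes lay as far from 1 as Ide, and the 5 farthest were Mug1, Ccnf, Mmp9, Ugt2b34 and Hspa12a. The genes whose log2 ratios to S were nearest to those of Ide over 26 points (13 classes in both comparisons, which share S) were Rpl36al, Rpl27, Pfdn2, Per1 and Hypk, among 3450 genes. Their root mean square differences from Ide were 0.44, 0.49, 0.57, 0.59 and 0.60 on the log2 scale.

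Classes made of different clusters in different libraries were checked cluster by cluster. The ratio of HFD_sed over S was above 1 in 19 of 20 clusters with at least 25 cells in each library and 20 UMIs, and at least 1.5 in 15. The exception was a hepatocyte-like cluster in which the 25 cells of HFD_sed had 0 Ide UMIs. The upper limit of that interval was 93.9 CPM, against a level of 33.9 CPM in S. The ratio of HFD_EXE over S was above 1 in 21 of 21 clusters and at least 1.5 in 18. The lowest of these was 1.07, in an NK cluster. The share of all genes that reached 1.5-fold in single clusters was not computed, so nothing is read from these counts.

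Endothelial cells showed the strongest dependence on clusters. Of them, 75.7% in HFD_EXE, 83.2% in HFD_sed and 97.1% in S each lay in a different cluster. By markers, the cluster with most of HFD_sed was named other vascular endothelium, and those with most of HFD_EXE and of S sinusoidal endothelium. These names were merged into 1 class, so endothelial ratios of HFD_sed over S largely set differently named cells against each other. In the cluster that held most of S, Ide stood at 77.4 CPM (65.2 to 91.2) in HFD_EXE, 102 CPM (73.0 to 139) in HFD_sed, against 36.0 CPM (33.9 to 38.3) in S. In the cluster that held most of HFD_sed, it stood at 75.1 CPM (59.2 to 93.8) in HFD_EXE, 80.6 CPM (76.1 to 85.3) in HFD_sed, against 57 CPM (36.2 to 85.6) in S. The 52 cells of S there had 23 UMIs, and their interval overlapped both others. In the cluster that held most of HFD_EXE, the level was 92.1 CPM (88.4 to 96.0) in HFD_EXE, 104 CPM (80.5 to 132) in HFD_sed, against 11.9 CPM (2.45 to 34.7) in S, the last from 3 UMIs in 52 cells. For HFD_sed over S the Ide ratio was 1.41, 2.84 and 8.76 in the clusters with most of HFD_sed, S and HFD_EXE, against 2.28 in the class. Among T cells, monocytes and hepatocyte-like cells, too, the cluster with most cells differed between libraries. For hepatocyte-like cells it held 84.6% of those of HFD_EXE and 85.4% of those of S. In S, Ide stood at 61.8 CPM (48.2 to 78.1) in the first of these clusters and 33.9 CPM (24.8 to 45.2) in the second.

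RNA released from hepatocytes was followed with 12 hepatocyte marker genes, such as Alb and Apoa1, since Ide was highest in hepatocyte-like cells of the high fat diet libraries. Summed over the markers, the 12 other classes ran between 300 and 8940 CPM in HFD_EXE (median 586), between 177 and 10145 CPM in HFD_sed (median 434) and between 694 and 7750 CPM in S (median 1258). The sum was below that of S in 11 of 12 classes in HFD_EXE and in 11 of 12 in HFD_sed, with cholangiocytes as the exception. At most 1 of the 12 markers was at 0, in cholangiocytes of HFD_sed. Other hepatocyte transcripts, named after their values were seen, moved otherwise. Fabp1 was higher than in S in 12 of these 12 classes in HFD_EXE and in 4 of 12 in HFD_sed. Mup7 was higher in 10 of 12 classes in HFD_EXE and in 0 of 12 in HFD_sed, and Mup21 in 7 and 0 of 12. The part of hepatocyte RNA in the Ide levels was not tested. Cell depth moved with the groups, with the lower medians in the high fat diet libraries. With only cells of at least 2000 UMIs the stratified Ide ratio was 2.34 for HFD_EXE over S and 2.16 for HFD_sed over S.

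Fgfbp3 was sparser. Over all kept cells it stood at 10.5 CPM (9.67 to 11.4) in HFD_EXE, 8.82 CPM (8.08 to 9.61) in HFD_sed, against 5.53 CPM (5.02 to 6.08) in S, from 599, 524 and 425 UMIs. The interval of S lay below both others. With class as a stratum, HFD_sed was 1.93-fold (1.68 to 2.22) above S. HFD_EXE was 1.54-fold (1.36 to 1.75) above S, and the interval of this ratio lay below that of Ide. HFD_EXE stood at 0.819 times HFD_sed (0.721 to 0.929), but at 1.19 times HFD_sed by CPM over all kept cells and at 1.0 with clusters at resolution 2.0.

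Endothelial cells held most Fgfbp3 UMIs. There it stood at 13.5 CPM (12.2 to 14.7) in HFD_EXE, 17.4 CPM (15.4 to 19.5) in HFD_sed, against 9.21 CPM (8.17 to 10.4) in S, from 452, 283 and 281 UMIs, and no 2 of these intervals overlap. The ratio was 1.88 (1.59 to 2.23) for HFD_sed over S and 1.46 (1.26 to 1.70) for HFD_EXE over S. At clustering resolution 2.0 the compared endothelial class held 403 cells of HFD_sed with 20 Fgfbp3 UMIs, against 2730 cells at resolution 1.0, and the ratio of HFD_sed over S was 1.09. Within single endothelial clusters Fgfbp3 rested on few UMIs in at least 1 library. In the cluster with most cells of HFD_sed it stood at 15.6 CPM (8.91 to 25.3) in HFD_EXE, 17.8 CPM (15.7 to 20.1) in HFD_sed, against 17.4 CPM (6.98 to 35.8) in S, the last from 7 UMIs, so HFD_sed was at 1.02 times S (0.490 to 2.57) there. In the cluster with most cells of S it stood at 15.2 CPM (10.1 to 21.9) in HFD_EXE, 20.4 CPM (8.83 to 40.3) in HFD_sed, against 9.11 CPM (8.06 to 10.3) in S, with HFD_EXE at 1.66 times S (1.08 to 2.46) and HFD_sed at 2.24 times S (0.959 to 4.49). In the cluster with most cells of HFD_EXE, S had 1 UMI. The difference between libraries in the class was thus not seen in each of its clusters. The highest level of each library was in cholangiocytes, at 24.9 CPM (11.9 to 45.8) in HFD_EXE, 33.1 CPM (15.9 to 60.9) in HFD_sed, against 13.3 CPM (5.34 to 27.4) in S. Those values rest on 10, 10 and 7 UMIs and overlap the next class of their library.

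With a minimum of 20 UMIs, Fgfbp3 was measured in 6 of 13 classes for HFD_sed over S and reached 1.5-fold in 4 of them: endothelial cells (where 17.4% of genes did), Kupffer cells (10.7%), T cells (12%) and the unnamed cluster (24.6%). Kupffer cells held 7.92 CPM in HFD_sed and 2.88 CPM in S, a ratio of 2.75 (1.64 to 4.45). T cells held 6.32 CPM in HFD_sed and 2.36 CPM in S, a ratio of 2.68 (1.53 to 4.96). In the unnamed cluster the ratio was 2.28 and in monocytes 1.23, with 2 and 3 UMIs in S, so both intervals (0.592 to 19.4 and 0.372 to 6.41) held 1.

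For HFD_EXE over S it was measured in 5 classes and reached 1.5-fold in 3, where 9.22% (T cells), 15.5% (Kupffer cells) and 13.5% (hepatocyte-like cells) of genes did. T cells held 7.37 CPM in HFD_EXE and 2.36 CPM in S, a ratio of 3.12 (1.66 to 6.11). Kupffer cells held 4.86 CPM in HFD_EXE and 2.88 CPM in S, a ratio of 1.68 (1.03 to 2.69), and hepatocyte-like cells had 2.25 (0.938 to 5.79), which turned to 0.711 at resolution 2.0 and to 0.898 with called doublets kept. For HFD_EXE over HFD_sed, where 7 classes were measured, 1 reached 1.5-fold. That class was monocytes, where 18.5% of genes did, with 9.75 CPM in HFD_EXE and 2.17 CPM in HFD_sed (4.49, 2.14 to 9.11).

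In conventional dendritic cells the Fgfbp3 level was 7.17 CPM (3.82 to 12.3) in HFD_EXE, 7.32 CPM (4.97 to 10.4) in HFD_sed, against 11.6 CPM (7.64 to 16.9) in S. The ratio was 0.619 (0.293 to 1.24) for HFD_EXE over S and 0.631 (0.365 to 1.10) for HFD_sed over S. Both intervals held 1 and neither held the stratified ratio of its comparison. The UMIs lay in few cells. The 27 UMIs of S were in 11 cells, of which 1 held 10, the 31 of HFD_sed were in 17 cells, and the 13 of HFD_EXE in 11. Without that 1 cell, left out after it was seen, S stood at 7.35 CPM (4.28 to 11.8), and the ratios were 0.977 (0.436 to 2.13) for HFD_EXE over S and 0.997 (0.535 to 1.92) for HFD_sed over S. With that cell left out, both ratios were close to 1. In the same class Ide was 1.91-fold (1.36 to 2.69) above S in HFD_EXE and 1.81-fold (1.35 to 2.46) in HFD_sed. The log2 range of Fgfbp3 over its measured classes was 2.12 for HFD_sed over S and 2.33 for HFD_EXE over S, and without conventional dendritic cells it was 1.16 and 1.10.

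The genes around the members on chromosome 19 had ratios to S on both sides of 1. Fgfbp3 comes before Ide in the RefSeq order, with Btaf1, Cpeb3, A330032B11Rik, Marchf5 and Gm25268 between them. Of 25 genes between and up to 10 places beyond the members, 16 had at least 100 UMIs for HFD_sed over S and 14 for HFD_EXE over S. For HFD_sed over S 1 was at least 1.5-fold higher (7.56% of all genes were) and 1 at least 1.5-fold lower (9.22% of all genes). For HFD_EXE over S 3 were higher (6.55% of all genes) and 3 lower (8.06% of all genes).

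Of the genes between the members, Btaf1, which encodes an ATPase that removes the TATA-binding protein from DNA, was 1.5-fold (1.41 to 1.60) above S in HFD_sed, the 1 higher neighbour there, and 1.2-fold (1.13 to 1.27) in HFD_EXE. Cpeb3, which encodes an mRNA-binding regulator of translation, stood at 1.12 times S (1.01 to 1.25) in HFD_sed and 1.22 times S (1.12 to 1.33) in HFD_EXE. Marchf5, a ubiquitin ligase gene of mitochondria, stood at 1.08 times S (1.02 to 1.13) in HFD_sed and 0.980 times S (0.933 to 1.03) in HFD_EXE. For HFD_EXE over S the intervals of these 3 genes lay below those of both members. For HFD_sed over S they lay below that of Fgfbp3, the lower of the members.

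On the far side of Fgfbp3, the tankyrase gene Tnks2 stood at 1.30 times S in HFD_sed and 1.15 times S in HFD_EXE. Hectd2os was 2.87-fold (2.34 to 3.52) above S in HFD_EXE and 1.25-fold (0.915 to 1.71) in HFD_sed, Hectd2 1.67-fold and 1.03-fold, and the glycogen-targeting phosphatase subunit gene Ppp1r3c 1.54-fold and 1.10-fold. These 3 were the higher neighbours of HFD_EXE. There the intervals of Ppp1r3c (1.25 to 1.88) and Hectd2 (1.25 to 2.25) overlapped that of Fgfbp3, and those of Hectd2 and Hectd2os that of Ide. Ankrd1 was at 0.508 times S in HFD_EXE and 0.132 times S in HFD_sed, and is the lower neighbour of HFD_sed. Rpl10-ps6, a ribosomal protein pseudogene, comes after Ide in the order of starts but is listed inside the span of Ide. It stood at 1.46 times S (1.10 to 1.94) in HFD_EXE and 1.48 times S (1.10 to 1.99) in HFD_sed. Both intervals overlapped those of Fgfbp3. On the far side of Ide, the mitotic kinesin gene Kif11 stood at 0.334 times S in HFD_EXE and 0.775 times S in HFD_sed. The homeobox gene Hhex stood at 0.370 and 0.849, and the exocyst subunit gene Exoc6 at 0.898 and 1.47.

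**Figure D4:**
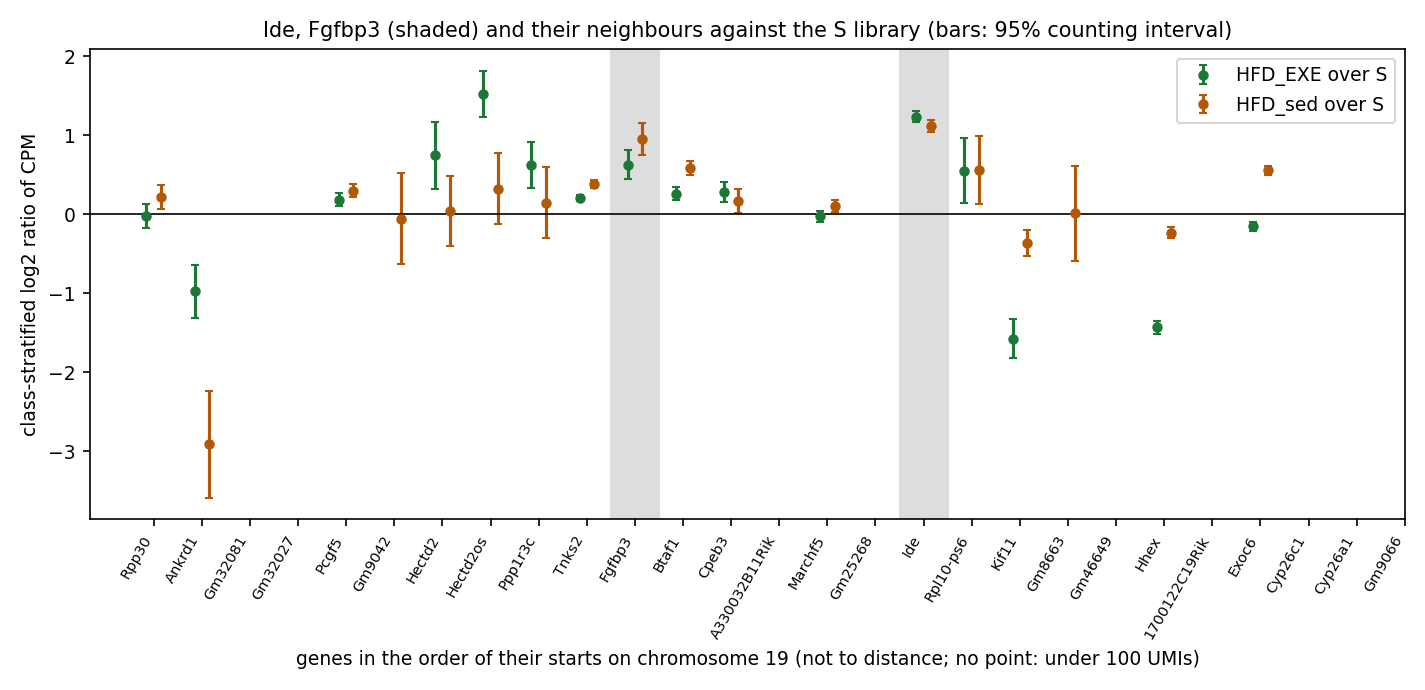
Class-stratified log2 ratio of CPM to the S library for Ide and Fgfbp3 (shaded) and their neighbours in chromosome order, for HFD_EXE over S and HFD_sed over S, with 95% counting intervals; genes under 100 UMIs have no point. The members stand above the 3 measured genes between them in HFD_EXE, and Hectd2os stands above both members there.

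Of 6 other members of the M16 metalloprotease family, to which Ide belongs, 6 were measured. In HFD_EXE over S, 0 were at least 1.5-fold higher (6.55% of all genes were) and 0 lower (8.06%), and for HFD_sed over S 0 were higher (7.56%) and 0 lower (9.22%). With 6 genes, counts of 0 lie near these shares. Nardilysin (Nrd1 in the files), a peptidase that cuts beside basic residues, stood at 0.893 times S in HFD_EXE and 0.911 times S in HFD_sed, and the mitochondrial peptidase gene Pitrm1 at 1.37 (1.27 to 1.47) and 1.27 (1.17 to 1.39). The median log2 ratio of the 6 was 0.05 for HFD_EXE over S and 0.07 for HFD_sed over S.

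Of 12 genes of insulin handling 11 were measured. For HFD_EXE over S, 1 was at least 1.5-fold higher (6.55% of all genes), the adaptor gene Grb10 at 1.66 times S, and 0 were lower (8.06%). For HFD_sed over S, 2 were higher (7.56% of all genes), the receptor genes Igf1r (1.54) and Igf2r (1.51), and 2 lower (9.22%), the insulin receptor gene Insr at 0.516 times S and Ceacam1, which promotes insulin uptake in liver, at 0.602 times S. Insr stood at 1.27 times S in HFD_EXE. The median log2 ratio of the list was 0.05 for HFD_EXE over S and 0.04 for HFD_sed over S.

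Other peptidases that degrade amyloid-beta numbered 9, of which 7 were measured for HFD_EXE over S and 5 for HFD_sed over S. Set against S, HFD_EXE had 1 higher (6.55% of all genes), the plasminogen activator gene Plat (1.61), and 1 lower (8.06%), the angiotensin-converting enzyme gene Ace (0.590). For HFD_sed over S 0 were higher (7.56%) and 2 lower (9.22%), Ace at 0.443 and the gelatinase gene Mmp9 at 0.395 times S.

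On the side of Fgfbp3, 16 genes of fibroblast growth factor signalling held 9 measured genes for HFD_EXE over S and 8 for HFD_sed over S. For HFD_EXE over S 2 were higher (6.55% of all genes) and 0 lower (8.06%), the heparan sulphate proteoglycan gene Gpc1 at 1.78 times S and the ligand gene Fgf1 at 1.58 times S. For HFD_sed over S 0 were higher (7.56%) and 5 lower (9.22%), the receptor genes Fgfr1 (0.288), Fgfr3 (0.385) and Fgfr2 (0.540), Fgf1 (0.399) and Gpc1 (0.428). The median log2 ratio of the list was 0.26 for HFD_EXE over S and -1.06 for HFD_sed over S.

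Genes in which C57BL/6 substrains are known to differ were looked at as well, although the mice are all given as C57BL/6J. No verdict on substrain is drawn from them. Nnt, the mitochondrial transhydrogenase gene, stood at 3.92 CPM in HFD_EXE, 3.27 CPM in HFD_sed and 4.50 CPM in S, with class-stratified ratios to S of 0.958 (0.802 to 1.14) in HFD_EXE and 0.878 (0.719 to 1.07) in HFD_sed. Wdfy1 stood at 1.26 times S (1.16 to 1.36) in HFD_EXE and 0.924 times S (0.843 to 1.01) in HFD_sed. Neither reached 1.5-fold, and Entpd4 and Entpd4b had 0 UMIs in the compared classes.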

How the data were processed

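Cell Ranger 6.1.2 and the build GRCm39 were used, per the submitters' processing notes; for counting options and strand use, the entry is: not given in the sources used here. Values as deposited are raw UMI counts, one for each gene and barcode, with no normalization. A cell was kept from 500 UMIs and 300 genes upwards if its mitochondrial UMIs were under 15%. Doublets were called with Scrublet in Scanpy 1.11.5 at 0.219, the mean of its automatic thresholds for HFD_sed and S, which removed 294, 330 and 405 cells of HFD_EXE, HFD_sed and S. The 3 libraries were clustered together without integration (2000 variable genes, 30 components, 15 neighbours, Leiden with leidenalg 0.10.2 at resolution 1.0). Clusters took a name where at least 3 of the markers of a type passed; classes may differ from the study's own.

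Counts were summed per class and library. CPM have exact Poisson intervals, class ratios exact conditional binomial (Clopper-Pearson) intervals, and the class-stratified ratio is a conditional Poisson estimate. Ratios needed 20 UMIs per class, or 100 over classes. All intervals reflect counting error alone. With 1 library in each group, and cells being no replicates, no test was made. The functions were checked on simulated data. The members and lists were chosen with earlier results of these data known. Named genes are the members, their chromosome 19 neighbours, 5 lists, and genes nearest Ide in size, evenness or pattern. Listed symbols absent from the files were matched by RefSeq synonyms.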

Additional observations from a re-analysis of the deposited data

Results flagged for a closer look

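In conventional dendritic cells Fgfbp3 lay below S where the other measured classes lay above it. Its ratio was 0.619 for HFD_EXE over S and 0.631 for HFD_sed over S, while the 4 and 5 other measured classes of these comparisons had ratios above 1. The difference between classes was not tested. Of the 27 UMIs of S in this class, 10 came from 1 cell, without which the ratios were 0.977 and 0.997 in the same order.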

How the results depend on the processing

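No paired analysis was possible because each group had 1 library and only S and E, which was not analysed here, share a number. The class-stratified ratio of Ide kept its direction under 10 alternatives, running between 2.17 and 2.43 for HFD_EXE over S and between 1.91 and 2.18 for HFD_sed over S; for Fgfbp3 it ran between 1.46 and 1.90, and between 1.60 and 2.08. As whole-library CPM, where cell composition enters, the log2 ratios of Ide were 0.93 (HFD_sed over S) and 0.26 (HFD_EXE over HFD_sed), and those of Fgfbp3 0.92 (HFD_EXE over S), 0.67 (HFD_sed over S) and 0.25 (HFD_EXE over HFD_sed). Clusters as strata were an alternative added after the data were seen. With them the log2 ratios of Ide were 1.12 for HFD_EXE over S and 1.03 for HFD_sed over S. Its log2 ranges were 2.86 and 2.92, and 2 clusters reached 1.5-fold for HFD_EXE over HFD_sed, with no share of all genes computed for clusters. Without hepatocyte-like cells the range of Ide for HFD_EXE over S was 0.83. Without conventional dendritic cells, also added later, the ranges of Fgfbp3 were 1.10 (HFD_EXE over S) and 1.16 (HFD_sed over S).

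The values of Fgfbp3 for single classes depended on the settings. For HFD_EXE over S its range was 1.49 at resolution 0.5, 1.21 at resolution 2.0 and 0.21 over the 2 classes with at least 50 UMIs, where 1 class reached 1.5-fold. With called doublets kept 1 class reached 1.5-fold. Its hepatocyte-like log2 ratio there turned to -0.16, and to -0.49 at resolution 2.0. For HFD_EXE over HFD_sed, resolution 2.0 gave a stratified log2 ratio of 0.0058 and a median of -0.13, and classes with at least 50 UMIs a range of 0.93 with 0 classes at 1.5-fold. For the neighbours, 2 were higher for HFD_sed over S by whole-library CPM and with at least 30 UMIs. Of 186 single-class Ide ratios to S under the alternatives 186 stayed above 1. They come from the same cells counted again, and some alternatives leave a class ratio unchanged. Of 77 such ratios of Fgfbp3, 58 were above 1. Only 2, the hepatocyte-like ones given above, turned from at least 1.5-fold above S to below it. The conventional dendritic ratios of Fgfbp3 were below 1 before any alternative. Without the cell with most Fgfbp3 UMIs in each library, also added later, the dendritic ratios were 0.835 (HFD_EXE over S) and 0.807 (HFD_sed over S). The endothelial log2 ratio of Fgfbp3 was 0.13 for HFD_sed over S and 0.37 for HFD_EXE over HFD_sed at resolution 2.0. There the class held 403 cells of HFD_sed, against 2730 at resolution 1.0. The cause of the other moves was not tested. UMI depth limits Fgfbp3 to few classes.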
